A study of Mus musculus with 9 samples.

Results

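The mast cell protease and receptor genes described here are the 9 genes Cpa3, Cma1, Mcpt4, Tpsb2, Tpsab1, Kit, Ms4a2, Hdc and Gata2, out of 34797 gene names on the array. They were chosen by gene name and not by their level, and 10 of the 55681 probes that are not controls carry these names, with 2 probes for Tpsb2 and 1 for each other gene. The RNA came from Gr-1bright neutrophils sorted to a purity above 98% from the back skin of female FVB/N mice, and all 4 groups, the skin groups included, had received the carcinogen DMBA at an age of 6 and 13 weeks and, with it, the tumor promoter PMA applied from week 1 until week 18 to 20. Papilloma skin (2 arrays) and tumor skin (2 arrays) are the skin around precancerous lesions and around carcinomas, and papilloma (3 arrays) and tumor (2 arrays) are the lesions themselves. Several mice were pooled for each array, so that the spread between arrays is one between pools, and no group of untreated mice was analysed here. Skin was digested with collagenase and lesions with collagenase, dispase and DNase, so that the digestion and the tissue cannot be told apart.

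Mast cells are tissue-resident granulocytes that store proteases, histamine and proteoglycans in their granules and release them when IgE on their surface is cross-linked. Connective tissue mast cells of mouse skin are known for chymases (Cma1, Mcpt4), tryptases (Tpsb2, Tpsab1) and the carboxypeptidase Cpa3, and they depend on the receptor tyrosine kinase Kit for survival. The transcription factor GATA2 is needed for the mast cell lineage and is also used by blood progenitors, basophils and endothelial cells, whereas Kit is used by melanocytes and progenitors too. Histidine decarboxylase, the product of Hdc, makes histamine and is known from mast cells, basophils and neutrophils. In sorted cells a probe of one of these genes can thus report a transcript of the neutrophils or of other cells carried along. In such bulk RNA, fewer cells of a type and less RNA per cell cannot be told apart.

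What was measured is the hybridization to 60-base probes, and the probes on which the results turn are given as the scanner files list them, on mouse build mm9. The tryptase probes and the probe of Cma1, which covers 1060 bases of genome and thereby crosses an exon junction, are shown in full. Of the downstream Tpsb2 probe and those of Kit, Hdc and Gata2, the first 30 bases are shown. No letters are in capitals because no part of a probe was singled out.
Tpsab1 (chr17:25480640-25480699, minus strand): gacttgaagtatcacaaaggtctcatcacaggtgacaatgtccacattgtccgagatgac
Tpsb2, upstream probe (chr17:25504493-25504552, plus strand): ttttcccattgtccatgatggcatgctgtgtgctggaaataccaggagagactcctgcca
Tpsb2, downstream probe (chr17:25504819-25504878, plus strand): gggctgtgctgtctttaactcactgcttcc
Cma1 (chr14:56561491-56562550, minus strand): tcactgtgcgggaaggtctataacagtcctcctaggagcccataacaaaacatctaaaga
Kit (chr5:76052394-76052453, plus strand): gtcaggtacttaaggggccacaccattgag
Hdc (chr2:126419516-126419575, minus strand): ttgatcataacctcacagggtcttcgtgat
Gata2 (chr6:88156362-88156421, plus strand): aactgcataagcttaacccgctgatgagtg
The remaining probes lie at chr3:20115674-20115733 for Cpa3, chr14:56678589-56678648 for Mcpt4 and chr19:11691701-11691760 for Ms4a2, each on the minus strand.

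The level of a probe is its log2 value in the table that the authors deposited for the 9 arrays. In that table, the columns labelled papilloma skin 1 and tumor 1 ranked the probes more like the scanner file of tumor 2 (Spearman's rho over all probes 0.923 and 0.946) than like their own scanner files (0.587 and 0.825). The columns of papilloma 2 and papilloma 3 were each closest to the other's file, which does not alter a comparison of groups, and the other 5 columns were closest to their own file. The scanner files of papilloma skin 1, tumor skin 1 and tumor 1 had spike-in slopes of 0.678, 0.876 and 0.894 against 1.04 to 1.06 in the other 6, and 90.7% to 95.0% of their spots were well above background against 44.2% to 64.2%. Detection of a dim probe therefore says less on these 3 arrays. Results that these arrays or the source of the values moved are given with and without papilloma skin 1 and tumor 1, and beside the quantile normalized scanner signals. The differences within slides rest on which column belongs to which slide and are also given with papilloma 2 and 3 exchanged.

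Neutrophil genes were detected in every group. All 8 probes of the neutrophil list were well above background on all 9 arrays, with S100a8 between 17.88 and 18.22, S100a9 between 18.45 and 18.63 and Csf3r between 16.68 and 16.89, while Ly6g and Mmp8 fell in all lesions against all skin. Of the 10 mast cell probes, 6 were well above background on all 9 arrays (Cpa3, Mcpt4, the downstream probe of Tpsb2, Kit, Hdc and Gata2). Tpsab1, Cma1 and the upstream probe of Tpsb2 were so on 7 arrays, and Ms4a2 on none. On the 6 arrays with slopes above 1, these last 4 probes were detected on 4, 4, 4 and 0 arrays.

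One of the 10 mast cell probes changed. Gata2 fell in tumor against papilloma neutrophils, and a probe counted as changed when its limma p, adjusted by Benjamini-Hochberg, did not exceed 0.05, its log2 values differed by 1 or more in either direction and its mean over the arrays reached 6. Over all 55681 probes, 0.447% changed in that comparison. No mast cell probe changed in tumor against tumor skin, papilloma against papilloma skin, tumor skin against papilloma skin, all lesions against all skin, or the comparison of the lesion effects between stages. There, 4.21%, 3.18%, 0.26%, 3.62% and 0.0269% of all probes changed by the same limma test. An unadjusted limma p under 0.05 was found for 3, 2, 2, 3 and 1 of the 10 mast cell probes, and for 26.9%, 20.7%, 22.7%, 29.9% and 14.7% of all probes, so that these counts were near the share of all probes. The median log2 fold change of the 10 probes was 0.04 in tumor against tumor skin, 0.20 in papilloma against papilloma skin and -0.31 in tumor against papilloma, where the median of all probes lay between -0.02 and -0.01. These comparisons share groups and are not independent of each other.

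**Figure D1:**
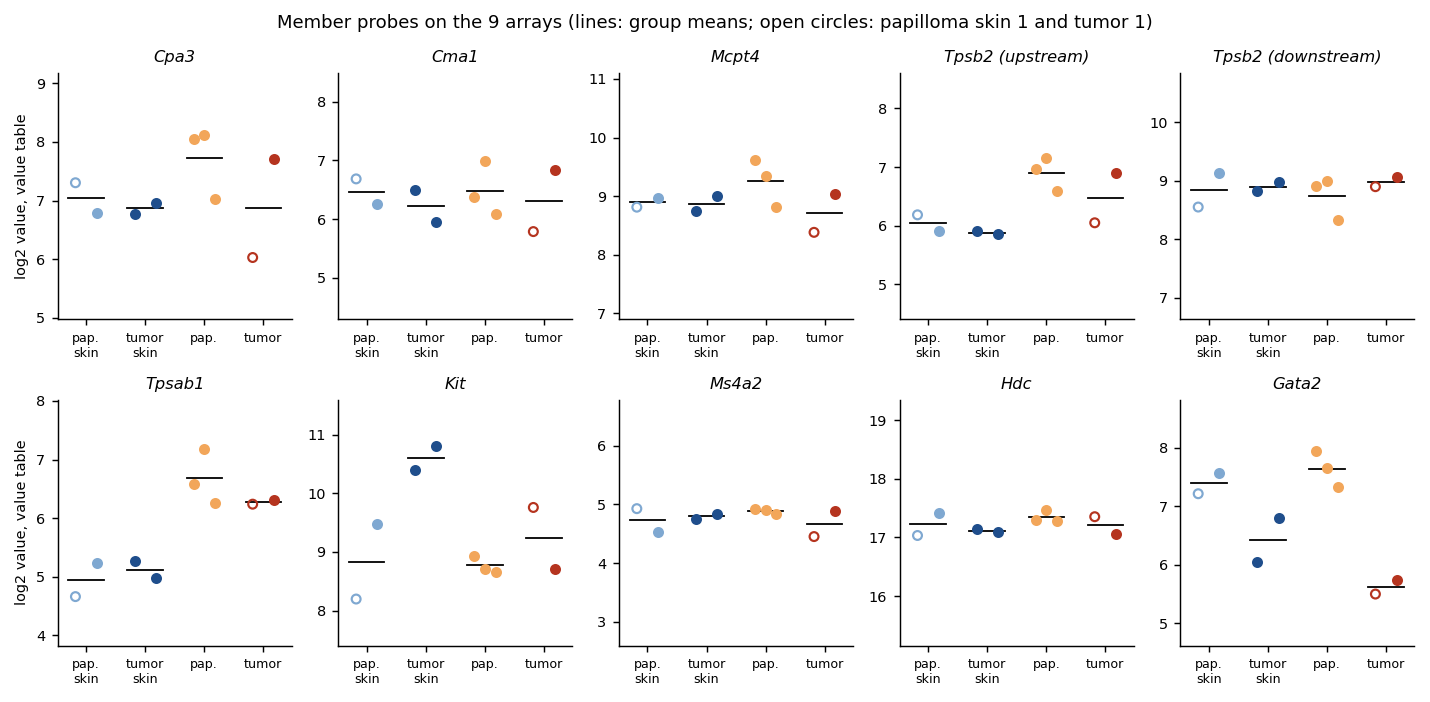
Log2 value of each mast cell probe (y axis, value table, every panel spanning the same number of log2 units) on the 9 arrays by group (x axis), with a line at the group mean. Open circles mark papilloma skin 1 and tumor 1, and Tpsb2 has an upstream and a downstream probe. All 5 lesion arrays sit above all 4 skin arrays for Tpsab1, tumor skin is highest for Kit, tumor is lowest for Gata2, and Hdc spans 17.03 to 17.47.

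Among the tryptases, trypsin-like serine proteases stored with heparin in the granule, Tpsab1 (mast cell protease 7) was higher in lesion than in skin neutrophils on every array. Its levels were 4.66 and 5.24 in papilloma skin, 5.26 and 4.98 in tumor skin, 6.59, 7.19 and 6.27 in papilloma and 6.24 and 6.32 in tumor. The lowest lesion array thus lay above the highest skin array, and the papilloma and tumor arrays overlapped. On the log2 scale the difference was 1.44 for all lesions against all skin (SE 0.207, limma adjusted p = 0.00312), or 2.72-fold. It was 1.73 in papilloma against papilloma skin (SE 0.28, limma adjusted p = 0.0102) and 1.15 in tumor against tumor skin (SE 0.306, limma adjusted p = 0.0516). The mean level of the probe, 5.86, was below the minimum of 6, so none of these differences counted as a change. Without that minimum, Tpsab1 was the mast cell probe that counted in all lesions against all skin and in papilloma against papilloma skin, where 3.76% and 3.44% of all probes did. The lesion effect of the tumor stage was smaller by 0.58 than that of the papilloma stage (SE 0.415, limma adjusted p = 0.559).

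The probe was well above background on all 5 lesion arrays and on 1 of 2 arrays in each skin group, namely on those with a compressed signal. Without papilloma skin 1 and tumor 1, the difference was 1.32 for lesions against skin (limma adjusted p = 0.0361) and 1.44 for the papilloma stage (limma adjusted p = 0.121). When papilloma skin 1 alone was left out, the mean of the probe passed the minimum of 6 and Tpsab1 counted as higher in lesions, by 1.30 (limma adjusted p = 0.0117). In the scanner signals, Tpsab1 was 2.57 to 4.59 on the skin arrays and 5.27 to 7.29 on the lesion arrays. These ranges did not overlap either, with a difference of 2.30 (limma adjusted p = 0.363). On the shared slides, papilloma exceeded papilloma skin by 1.92 on slide 1 and 1.95 on slide 2 (1.03 with the columns of papilloma 2 and 3 exchanged), and tumor exceeded tumor skin by 0.98 on slide 1. With slide as a term the lesion difference was 1.34 (limma adjusted p = 0.00694).

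Tpsb2, the tryptase mast cell protease 6, gave unlike patterns on its probes. The upstream probe was 6.18 and 5.92 in papilloma skin, 5.90 and 5.85 in tumor skin, 6.96, 7.15 and 6.58 in papilloma and 6.05 and 6.89 in tumor. All 3 papilloma arrays were above every skin array, whereas tumor 1 lay within the range of papilloma skin. The lesion difference was 0.72 (SE 0.196, limma adjusted p = 0.0429), less than the minimum of 1 for a change. It was 0.85 in papilloma against papilloma skin (SE 0.264, limma adjusted p = 0.11). The call depended on papilloma skin 1 and tumor 1, without which the lesion difference was 1.00 (limma adjusted p = 0.0268) and counted as a change. The downstream probe lay between 8.33 and 9.13 with all groups overlapping, and its lesion difference was -0.01 (SE 0.179, limma adjusted p = 0.982).

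The chymases, chymotrypsin-like proteases, and the carboxypeptidase did not pass the test in any comparison. Mcpt4 (mast cell protease 4), a chymase of connective tissue mast cells, was 8.81 and 8.98 in papilloma skin, 8.74 and 9.0 in tumor skin, 9.61, 9.35 and 8.81 in papilloma and 8.38 and 9.04 in tumor. Papilloma 1 and 2 were above all skin arrays, as was tumor 2 by a small margin, while papilloma 3 was within the range of the skin and tumor 1 below it. Its log2 fold change was 0.36 in papilloma against papilloma skin (SE 0.27, limma adjusted p = 0.507) and -0.54 in tumor against papilloma (SE 0.27, limma adjusted p = 0.4). Cma1 (mast cell protease 5) was between 5.79 and 6.99 with both extremes in lesions, papilloma 2 and tumor 1, and its lesion difference was 0.05 (SE 0.275, limma adjusted p = 0.918). Without papilloma skin 1 and tumor 1, the lesion difference of Cma1 was 0.43 (limma adjusted p = 0.373), and tumor against papilloma was -0.21 for Mcpt4 (limma adjusted p = 0.835). In the scanner signals the lesion difference of Cma1 was 0.39 (limma adjusted p = 0.905) and Mcpt4 in papilloma against papilloma skin 1.77 (limma adjusted p = 0.516).

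Cpa3, the carboxypeptidase that trims peptides in the granule, was 7.30 and 6.79 in papilloma skin, 6.78 and 6.96 in tumor skin, 8.05, 8.12 and 7.02 in papilloma and 6.03 and 7.71 in tumor. The tumor arrays held both a level below all skin arrays and one above them. Its log2 fold change was 0.68 in papilloma against papilloma skin (SE 0.498, limma adjusted p = 0.497) and -0.86 in tumor against papilloma (SE 0.498, limma adjusted p = 0.462). The latter rested on tumor 1, without which it was -0.02 (limma adjusted p = 0.994), and it was -1.70 (limma adjusted p = 0.269) without tumor 2. In the scanner signals the papilloma difference was 2.53 (limma adjusted p = 0.516) and that of tumor against papilloma -1.70 (limma adjusted p = 0.92).

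**Figure D2:**
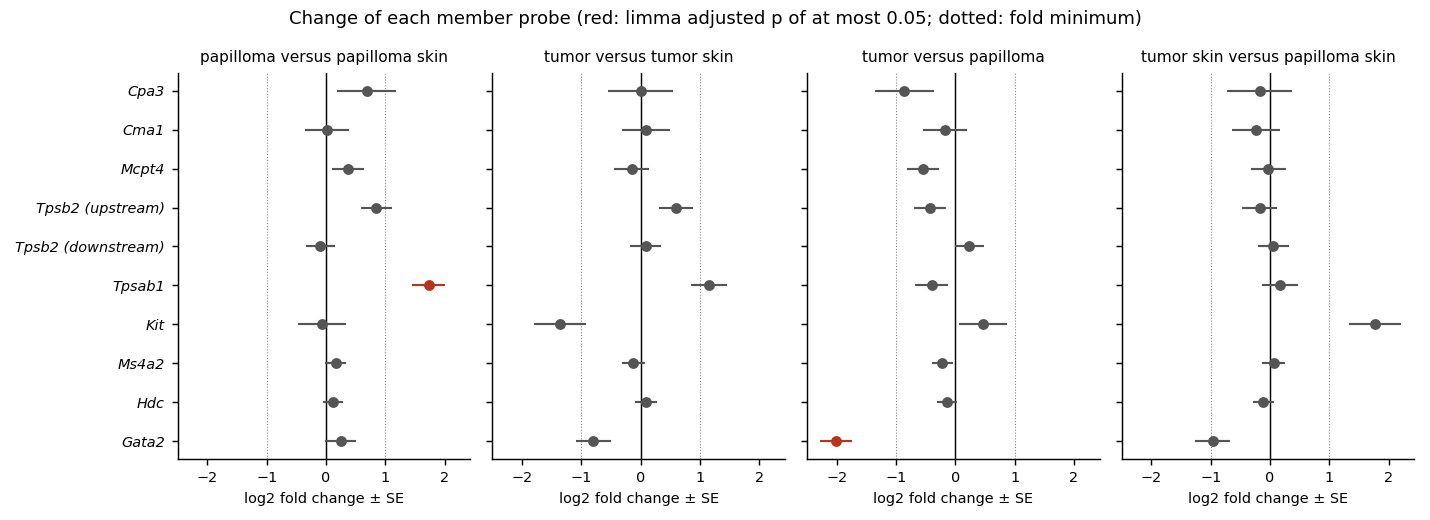
Log2 fold change with its standard error (x axis) of each mast cell probe (y axis) in the 4 comparisons of single groups, from limma on the value table. Red points have an adjusted p of at most 0.05, which holds for Tpsab1 in papilloma against papilloma skin (1.73) and Gata2 in tumor against papilloma (-2.01); dotted lines mark the minimum change of 1.

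Kit, the receptor for stem cell factor, was highest in tumor skin. Its levels were 8.20 and 9.47 in papilloma skin, 10.40 and 10.80 in tumor skin, 8.94, 8.72 and 8.66 in papilloma and 9.76 and 8.72 in tumor. Both tumor skin arrays were above the other 7 arrays, and the other 3 groups overlapped. Tumor skin exceeded papilloma skin by 1.77 (SE 0.442, limma adjusted p = 0.09), or 3.40-fold, and tumor differed from tumor skin by -1.36 (SE 0.442, limma adjusted p = 0.0914), neither of which passed the threshold. Papilloma differed from papilloma skin by -0.06 (SE 0.404, limma adjusted p = 0.954). The difference between the lesion effects was -1.30 (SE 0.599, limma adjusted p = 0.363).

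Tumor skin was highest for Kit in the scanner signals too, where it was 10.08 and 10.91 and the other 7 arrays were between 8.68 and 9.55. Papilloma skin 1 and tumor 1 bore on the call. Without both, tumor against tumor skin was -1.88 (limma adjusted p = 0.0265) and all lesions against all skin -1.29 (limma adjusted p = 0.0122), which counted as changes, against -0.71 (limma adjusted p = 0.154) with them. Papilloma skin 1 and papilloma skin 2 are not in tumor against tumor skin. Leaving out either alone lowered the SE there from 0.442 to 0.332, as the spread within papilloma skin no longer entered it. The value of tumor against tumor skin stayed at -1.36. Without tumor 2 that value was -0.84 (limma adjusted p = 0.424), and without tumor 1, tumor skin 1 or tumor skin 2 it was -1.88, -1.57 and -1.16 (limma adjusted p = 0.0726, 0.142 and 0.231). Tumor skin against papilloma skin was 1.13 (limma adjusted p = 0.317) without papilloma skin 1 and 2.40 (limma adjusted p = 0.0735) without papilloma skin 2. Without papilloma skin 1, Kit also counted in all lesions against all skin at -1.03 (limma adjusted p = 0.0396). Within slides, tumor skin exceeded papilloma skin by 2.20 on slide 1, the difference of tumor from tumor skin was -0.64 there, and that of papilloma 3 from tumor skin 2 on slide 3 was -2.14 (-2.09 with papilloma 2 and 3 exchanged).

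Among the Kit axis genes, its ligand and signaling partners, 1 of 10 probes changed in any comparison. A probe of Stat5b, a transcription factor downstream of Kit, fell by 1.13 in tumor against tumor skin (SE 0.209, limma adjusted p = 0.0157), from 11.64 and 11.33 to 10.52 and 10.19. Kitl, the ligand, was between 5.80 and 6.85 in the group means. Over all probes, 4.21% changed in tumor against tumor skin. The median log2 fold change of the list was -0.41 for all lesions against all skin, where that of all probes was -0.02.

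Ms4a2, the beta chain of the high-affinity IgE receptor, was not well above background on any array. Its values were 4.45 to 4.93. Its log2 fold changes are drawn with those of the other mast cell probes and enter their counts and medians, but they are not described. Fcer1a, the alpha chain that binds IgE, was 5.83 and 5.31 in papilloma skin, 4.93 on both tumor skin arrays, 6.94, 7.23 and 6.36 in papilloma and 5.39 and 6.45 in tumor. All papilloma arrays were above all skin arrays, and the tumor arrays overlapped with papilloma skin. It was higher in lesions by 1.13 (SE 0.26, limma adjusted p = 0.0233) but below the level minimum. Fcer1g, the gamma chain that neutrophils share with other Fc receptors, was 16.42 to 16.79 in skin and 16.88 to 17.21 in lesions, a difference of 0.38 (SE 0.091, limma adjusted p = 0.0279).

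Of the 19 probes for IgE receptor signaling, 1 fell in tumor against tumor skin, 1 rose and 1 fell in papilloma against papilloma skin, and 1 fell in all lesions against all skin. The falling one was Plcg2, a phospholipase also used by other Fc receptors, with 13.29 to 13.97 in skin and 12.24 to 12.57 in lesions and a change of -1.29 (SE 0.14, limma adjusted p = 0.000914). The rising one was 1 of 2 probes for the kinase Syk, at 1.08 (SE 0.203, limma adjusted p = 0.0191) in papilloma against papilloma skin. It was 0.78 (limma adjusted p = 0.102) without papilloma skin 1 and tumor 1. The median of the list was -0.08 for all lesions against all skin. Over all probes, 4.21%, 3.18% and 3.62% changed in tumor against tumor skin, papilloma against papilloma skin and all lesions against all skin.

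Hdc was bright on all arrays and did not pass the test in any comparison. Its levels were 17.03 and 17.43 in papilloma skin, 17.14 and 17.09 in tumor skin, 17.29, 17.47 and 17.28 in papilloma and 17.35 and 17.06 in tumor. All groups overlapped, and the whole range was 0.44 on the log2 scale. The largest of its 5 log2 fold changes between groups was -0.14 in tumor against papilloma (SE 0.165, limma adjusted p = 0.722), and the lesion difference was 0.11 (SE 0.122, limma adjusted p = 0.611). Its scanner signals were 16.82 to 18.04, with the highest value on tumor 1, and no spot was saturated. The histamine genes for receptors, transport and breakdown had 8 probes of 5 genes, none of which changed, with a median of -0.24 for all lesions against all skin. Hnmt, the enzyme that inactivates histamine by methylation, had group means between 9.45 and 10.63 on one probe and between 8.11 and 9.24 on the other.

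Gata2 was lowest in tumor neutrophils. Its levels were 7.21 and 7.57 in papilloma skin, 6.05 and 6.79 in tumor skin, 7.94, 7.65 and 7.33 in papilloma and 5.50 and 5.75 in tumor. The tumor arrays were below all others, the tumor skin arrays lay between them and the papilloma stage, and papilloma overlapped with papilloma skin. Tumor fell by 2.01 against papilloma (SE 0.263, limma adjusted p = 0.0198), a level 4.04-fold lower. Tumor skin differed from papilloma skin by -0.97 (SE 0.288, limma adjusted p = 0.121) and tumor from tumor skin by -0.80 (SE 0.288, limma adjusted p = 0.12). The lesion effects of both stages differed by -1.04 (SE 0.39, limma adjusted p = 0.282), so that an unlike lesion effect in the stages did not pass the test.

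The call for Gata2 in tumor against papilloma was lost without papilloma 1, 2 or 3, at -1.86, -2.01 and -2.17 (limma adjusted p = 0.066, 0.0624 and 0.0666). Over all probes, 89, 155 and 46 changed in that comparison in these fits, against 249 with all arrays. Fits that left 1 array in a group are given by their value only. The value was -2.01 without any 1 of the 4 skin arrays. Without tumor 1 it was -1.89, without tumor 2 -2.14, and without papilloma skin 1 and tumor 1 together -1.89. With slide as a term it was -2.01 (limma adjusted p = 0.194), where 0 of all probes changed. Within slides it was -2.44 on slide 1 and -1.90 on slide 2 (-1.58 with the columns of papilloma 2 and 3 exchanged). In the scanner signals, papilloma was 7.22 to 7.77 and tumor 4.71 to 5.15, a difference of -2.65 (limma adjusted p = 0.92). Papilloma skin 1 at 4.80 and tumor skin 1 at 4.70 were there as low as tumor, so that the place of the skin groups was not the same in both sources.

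**Figure D3:**
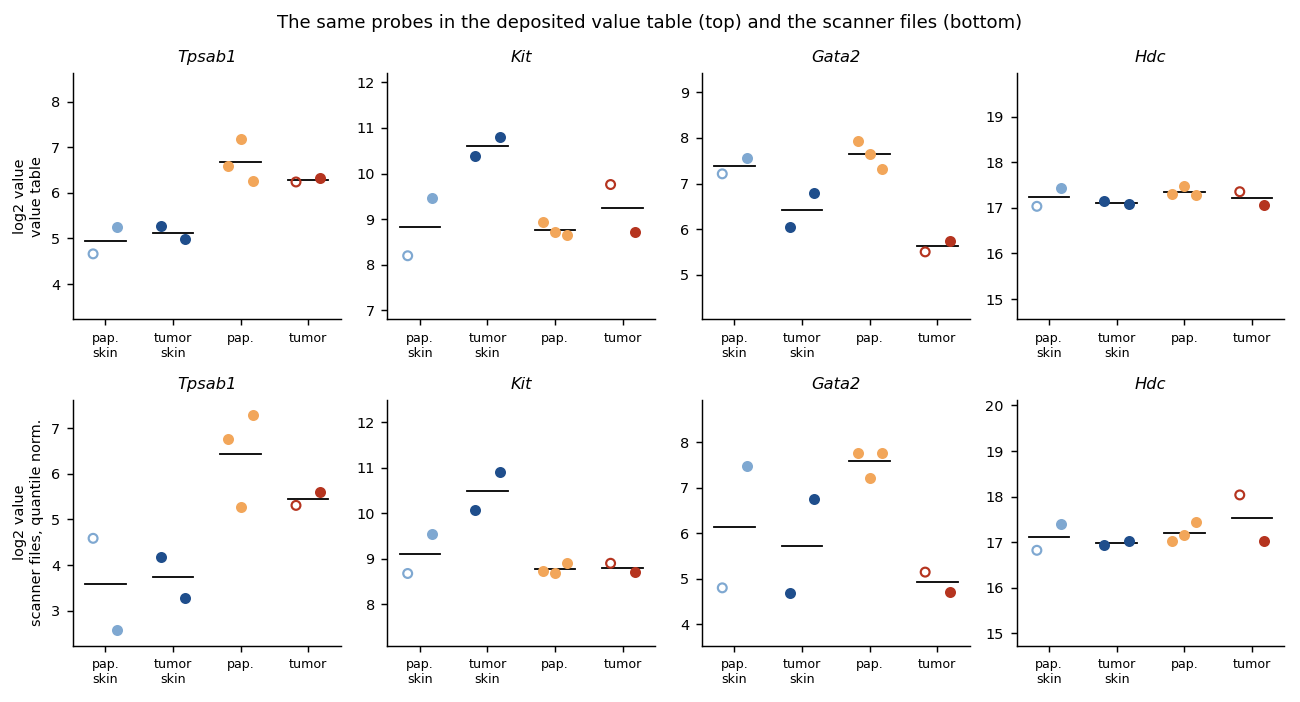
Log2 values by group (x axis) for 4 mast cell genes in the deposited value table (top row) and in the quantile normalized scanner signals (bottom row), with lines at group means and open circles for papilloma skin 1 and tumor 1. In both sources Tpsab1 is higher in lesions than in skin, Kit is highest in tumor skin and Gata2 is lower in tumor than in papilloma, while Gata2 in the skin groups is spread over 4.70 to 7.48 in the scanner signals.

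Other cell types that use Kit or Gata2 were followed by their markers. The summed level of the 7 melanocyte probes was 9.998 to 10.89 in papilloma skin, 11.46 to 11.51 in tumor skin, 11.85 to 12.25 in papilloma and 9.91 to 10.22 in tumor. Of these probes, 5 fell in tumor against papilloma (of Dct, Mlana, Tyrp1 and Sox10), 4 rose in papilloma against papilloma skin (of Dct, Mlana and Tyrp1), and 2, both of Dct, fell in tumor against tumor skin, where the Kit difference was -1.36. Over all probes, 0.447%, 3.18% and 4.21% changed in these comparisons. Dct, a melanin synthesis enzyme, fell by 2.40 in tumor against papilloma (SE 0.295, limma adjusted p = 0.017), where Kit differed by 0.47 (limma adjusted p = 0.62). The levels of Dct were 8.45 to 9.53 in papilloma skin and 10.36 to 10.40 in tumor skin, where Kit was highest. The melanocyte sum was highest in papilloma, where Kit was 8.66 to 8.94. The median log2 fold change of the melanocyte list was -1.88 in tumor against papilloma, 1.60 in papilloma against papilloma skin and -0.81 in tumor against tumor skin. Without papilloma skin 1 and tumor 1 these medians were -1.845, 1.04 and -0.81. Counts of changed probes are not given there, because 1 array was left in each of these groups. In the scanner signals the papilloma difference of Dct turned to -0.64. The Tyr probes had 9 and 1 arrays well above background.

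The endothelial list, with 6 probes, summed to 12.74 to 12.77 in papilloma skin, 13.14 to 14.01 in tumor skin, 12.76 to 13.50 in papilloma and 12.44 to 12.56 in tumor, lowest in the group that was lowest for Gata2. The sum followed its brightest probe, one for Kdr, and not most of the list, whose median was 0.79 in tumor against tumor skin with 2 probes that rose (1 without papilloma skin 1 and tumor 1). Of its probes, 4 rose in papilloma against papilloma skin (2 without papilloma skin 1 and tumor 1) and 3 in all lesions against all skin (also 3 without them). Cdh5, the cadherin of endothelial junctions, rose by 2.48 in all lesions against all skin (SE 0.334, limma adjusted p = 0.00236), with 4.69 to 7.18 in skin and 6.65 to 9.68 in lesions. The 10 progenitor probes had 1 that rose in lesions, of Cd34. The keratinocyte list summed to 12.97 to 13.89 in skin and 13.58 to 15.33 in lesions, and 2 of its 10 probes rose in all lesions against all skin (5 without papilloma skin 1 and tumor 1). The fibroblast list summed to 12.82 to 14.42 in skin, 14.81 to 15.30 in papilloma and 11.83 to 13.57 in tumor, and 1 of its 5 probes rose in all lesions against all skin (2 without these arrays). Over all probes, 4.21%, 3.18% and 3.62% changed in tumor against tumor skin, papilloma against papilloma skin and all lesions against all skin. The part of melanocytes, endothelial cells, progenitors, keratinocytes and fibroblasts in the levels of Kit, Gata2 and the tryptases was not tested.

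**Figure D4:**
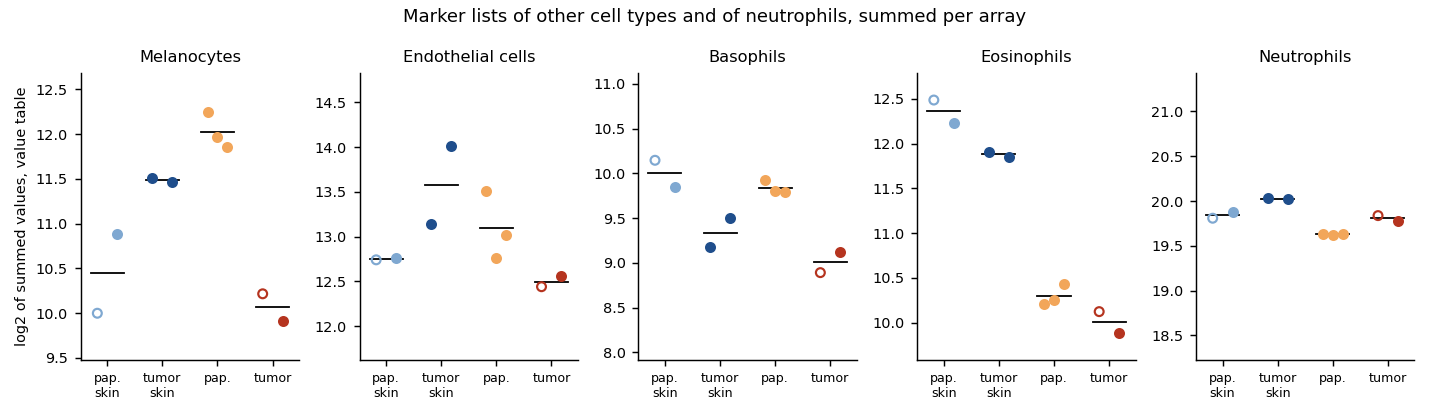
Log2 of the summed values of each marker list (y axis, value table) on the 9 arrays by group (x axis), with lines at group means and open circles for papilloma skin 1 and tumor 1. The melanocyte list is lowest in tumor and papilloma skin, the eosinophil list is lower in all lesions than in all skin, and the neutrophil list spans 19.62 to 20.03.

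Further mast cell genes, for granule contents, mediators and receptors, were taken from a list of 20 genes with 27 probes, of which 14 were well above background on all arrays. In all lesions against all skin 5 probes rose and 3 fell, in papilloma against papilloma skin 5 rose and 4 fell, in tumor against tumor skin 5 rose and none fell, and 1 fell in each of the remaining comparisons of 2 groups. Over all probes, 3.62%, 3.18% and 4.21% changed in the first 3 of these, and 0.447% and 0.26% in tumor against papilloma and tumor skin against papilloma skin. The list was chosen with earlier results of these data known, so its counts are a description and not a test. The median log2 fold change was 0.32 in all lesions against all skin, where that of all probes was -0.02. In papilloma against papilloma skin the median was 0.21 and in tumor against tumor skin 0.33. Without papilloma skin 1 and tumor 1, the medians in these 3 comparisons were 0.30, 0.21 and 0.24, in the same order. With the quantile normalized scanner signals 0 probes of the list changed. There, 0 of all 55155 probes changed too, so that this says nothing about the list.

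Cd63, Mcpt2, Tph1 and Adora3 were among the genes that rose in lesions. Cd63, a tetraspanin of granule and lysosome membranes that many cells use, was 12.81 to 13.64 in skin and 14.43 to 15.16 in lesions and rose by 1.43 (SE 0.117, limma adjusted p = 0.000261). Mcpt2, a chymase of mucosal mast cells, was 5.44 to 5.83 in skin and 6.56 to 6.85 in lesions and rose by 1.15 (SE 0.114, limma adjusted p = 0.000585). Neither overlapped between skin and lesions. Tph1, the first enzyme of serotonin synthesis, rose by 1.19 (SE 0.182, limma adjusted p = 0.00408), and 1 of 2 probes of the adenosine receptor Adora3 by 1.10 (SE 0.173, limma adjusted p = 0.00458). These 4 also rose in papilloma against papilloma skin, and Cd63, Mcpt2 and Adora3 in tumor against tumor skin.

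Ltc4s, which makes leukotriene C4, followed the papilloma. It was 9.63 and 10.04 in papilloma skin, 10.81 and 10.57 in tumor skin, 11.86, 12.35 and 11.93 in papilloma and 10.65 and 10.59 in tumor. The 3 papilloma arrays were above all others, and tumor overlapped with tumor skin. It rose by 2.21 in papilloma against papilloma skin (SE 0.197, limma adjusted p = 0.000819) and fell by 1.42 in tumor against papilloma (SE 0.197, limma adjusted p = 0.0236), the latter a limma adjusted p of 0.208 without papilloma skin 1 and tumor 1. Probes of Mitf, a transcription factor of mast cells and melanocytes, and of Rab27b, a granule transport GTPase, rose in tumor against tumor skin by 1.53 (SE 0.25, limma adjusted p = 0.0102) and 1.66 (SE 0.308, limma adjusted p = 0.016). The second probes of both genes did not pass, at 0.85 and 0.19.

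Lower in lesions were Il1rl1 and Ctsg. The brightest Il1rl1 probe, for the IL-33 receptor, was 11.61 and 11.74 in papilloma skin, 9.82 and 10.29 in tumor skin, 9.73, 9.31 and 9.47 in papilloma and 9.28 and 9.13 in tumor. Skin and lesion arrays did not overlap, and tumor skin fell by 1.62 against papilloma skin (SE 0.206, limma adjusted p = 0.036), a limma adjusted p of 0.273 without papilloma skin 1 and tumor 1. It fell by 2.17 in papilloma against papilloma skin (SE 0.188, limma adjusted p = 0.000758). In the scanner signals that difference was 0.20 and thus not lower, and the other Il1rl1 probes, which fell by 1.60 and 1.39 in the table, were at 0.90 and 0.55 there. Ctsg, cathepsin G of neutrophil and mast cell granules, fell by 2.23 in papilloma against papilloma skin (SE 0.391, limma adjusted p = 0.0145). Papilloma skin 1 at 9.38 stood above papilloma skin 2 at 8.03 for Ctsg. Its difference was -1.55 (limma adjusted p = 0.0608) without papilloma skin 1 and tumor 1.

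**Figure D5:**
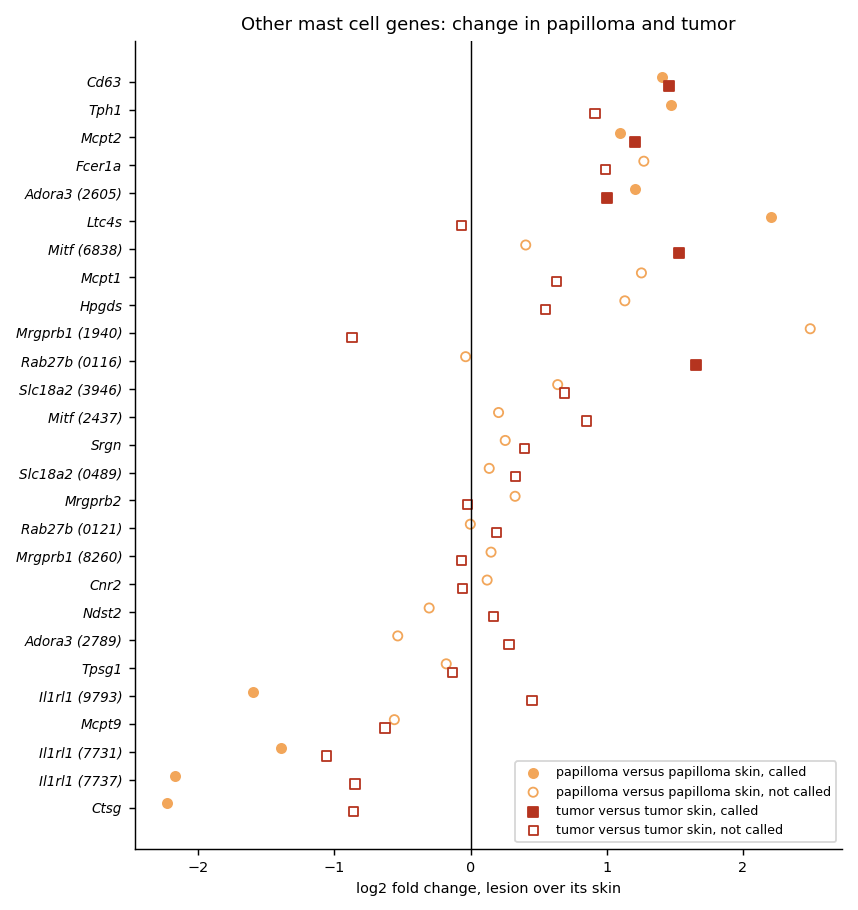
Log2 fold change (x axis) of 27 probes for 20 further mast cell genes (y axis, ordered by their difference between all lesions and all skin), for papilloma against papilloma skin (circles) and tumor against tumor skin (squares). Filled symbols changed by the limma test; Cd63, Mcpt2 and an Adora3 probe are filled and above 0 for both lesions, and Ctsg and 3 Il1rl1 probes are filled and below 0 for papilloma.

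The genes that neighbour the chymases in the granzyme and chymase cluster did not move as a group. Gzmc, a granzyme of cytotoxic lymphocytes, was 11.98 to 13.80 in skin and 7.41 to 9.31 in lesions and fell by 4.51 (SE 0.433, limma adjusted p = 0.000528), Gzmb rose by 1.33 in tumor against tumor skin (SE 0.212, limma adjusted p = 0.00963), and Cma2 was at -0.15 for all lesions against all skin (limma adjusted p = 0.617). Mcpt8, a protease of basophils, rose by 2.07 in papilloma against papilloma skin (SE 0.409, limma adjusted p = 0.0235), from 5.42 and 5.02 to 6.74, 8.02 and 7.11, and without papilloma skin 1 and tumor 1 the limma adjusted p was 0.126. Of the 6 basophil probes, it was the one that rose, and Gata1 fell by 1.88 in all lesions against all skin (SE 0.153, limma adjusted p = 0.000261). In that comparison 4 of 7 eosinophil probes also fell (of Ccr3, Ear1, Ear6 and Il5ra), with a list median of -1.54, and 3.62% of all probes changed. The basophil list summed to 9.85 to 10.15 in papilloma skin, 9.17 to 9.50 in tumor skin, 9.79 to 9.93 in papilloma and 8.89 to 9.12 in tumor. Its part in the levels of Gata2, Hdc and Fcer1a was not tested.

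Genes with a pattern most like that of Mcpt4, the protease gene of highest mean log2 value in the table, were Crhr1, Magi2, Tns4, Vmn1r216 and Arhgef19, with Pearson's r of 0.919, 0.913, 0.902, 0.892 and 0.889 over the 9 columns among 11691 gene names. The group means of these 5 genes lay between 5.96 and 6.83, where the medians of the 9 columns were 6.08 to 6.12. Within a gene they spanned from 6.18 to 6.35 for Crhr1 and from 5.96 to 6.35 for Vmn1r216. These r values thus rest on small differences at levels near the median of all probes. The 9 members were left out of the candidates, so this ranking does not show how closely they followed Mcpt4. None of the genes named for Mcpt4 is in the list of further mast cell genes. For Hdc they were Ptprj, Emd, Smchd1, Tnfrsf1b and Slc15a2, with r of 0.931, 0.929, 0.926, 0.926 and 0.921. The columns share their normalization, and papilloma skin 1 and tumor 1 are among them.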

How the data were processed

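RNA of sorted neutrophils was hybridized to 9 one-color Agilent mouse arrays on 3 slides, and groups were taken from the labels. The authors deposited scanner output (Feature Extraction 10.7.3.1) with a fluorescence intensity per spot, background-subtracted by the software and not scaled between arrays, and a matrix on the log2 scale (the value table) with a row for each probe and a column for each array. The methods describe quantile normalization, removal of the chip effect with ComBat and limma, and which of these steps the table holds is not given in the sources used here.

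Probes were matched by gene name, and each probe is shown on its own. The log2 values of all 55681 probes were tested as deposited with limma 3.58.1 (R 4.3.3), with 4 groups and no covariate, and Benjamini-Hochberg adjustment over all probes. A change needed an adjusted p no greater than 0.05, a log2 difference of 1 or more in either direction and a mean over the arrays that reached 6. The test was checked on simulated data of 55681 probes for tumor versus tumor skin, where 72% of 200 probes shifted by 2 were recovered. Means and SD by group rest on 2 or 3 arrays, which limits the precision, and p-values measure the spread between pools of mice as it stands in the table. If the chip effect had been removed from the table, the test made no allowance for that step, and its p-values can be too small. In tumor against tumor skin 2346 probes changed, against 209 with slide as a term. Scanner signals were put on the log2 scale and quantile normalized after spots with an outlier flag had been removed, which left 55155 probes.

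The 10 other settings run were 4 treatments of the scanner signals (quantile normalized with and without slide as a term, scaled to the 75th percentile, and normexp background with an offset of 50), slide as a term, the replicate number as a block, no level minimum, only probes well above background on all arrays of a group (36450 probes), leaving out papilloma skin 1 and tumor 1, and medians per gene name. In addition, each of the 9 arrays was left out in turn. The fit of the scanner signals of the 6 arrays whose spike-in slope exceeded 0.9 was chosen after seeing the data. So were the counts and medians of the gene lists under other settings, and the exchange of papilloma 2 and 3 within slides. Named are all 9 members and, of the gene lists, genes that changed or that a sentence on the list needs; for the lists of endothelial cells, keratinocytes and further cell types only some of the genes that changed are named. Named as well are, for Mcpt4 and Hdc each, the 5 gene names with the highest Pearson's r (median per gene name, mean level of at least 6, well above background on all arrays of a group, no clone or accession names). The 9 members were not candidates there. Members and lists were chosen with earlier results of these data known. Of the 9 members, 8 had the same symbol in the RefSeq table by accession. Python 3.11.15, pandas 2.3.3, numpy 2.4.6, matplotlib 3.10.9 and the R package data.table (version 1.17.8) were used.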

Additional observations from a re-analysis of the deposited data

How the results depend on the processing

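The count of mast cell probes that changed in tumor against papilloma was 1, and it was also 1 without a level minimum, with dim probes left out and with medians per gene name. It was 0 with the 4 treatments of the scanner signals, slide as a term and the replicate block. Over all 55681 probes, slide as a term gave 0 changes in that comparison and the replicate block 1. A lost call there thus says little about Gata2 itself. Gata2 also lost its call without papilloma 1, 2 or 3. In papilloma against papilloma skin it was 0, and 1 without a level minimum. In all lesions against all skin it was 0, against 1 without a level minimum and 2 without papilloma skin 1 and tumor 1, and it ranged from 0 to 2 with each array left out. In tumor against tumor skin it was 0, against 1 without papilloma skin 1 and tumor 1, and 0 to 1 with each array left out. The other counts stayed at 0 under every alternative run. The causes were not tested. Of the 12 log2 fold changes with an unadjusted p under 0.05, none turned in direction over 238 refits, 39 lost and 7 gained an adjusted p of at most 0.05. Of the other 48 fold changes, 145 of 944 refits turned the sign, and these had not passed the test. Many refits could not alter a fold change, such as those without a level minimum or without an array of a group not compared. The counts of unturned signs therefore say little about how firm a direction is.

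Deviations from the group means of same-numbered arrays correlated between -0.957 and 0.376 over all probes, and those of arrays with different numbers between -0.42 and 0.957. All arrays numbered 1 were on slide 1, so removal of a chip effect would also remove a deviation that they share. Some columns were also closer to another scanner file. These correlations therefore cannot decide whether replicate numbers pair the arrays. With the replicate number as a block, Gata2 in tumor against papilloma was -2.17 (limma adjusted p = 0.168) and Tpsab1 in all lesions against all skin 1.54 (limma adjusted p = 0.0123), and 0 mast cell probes changed. Over all probes, the scanner signals gave 0 changes in every comparison and treatment other than all lesions against all skin with normexp background (81), so that a missing call there says little about a single gene. Tpsab1 and the upstream Tpsb2 probe were well above background on 1 of 2 arrays in each skin group, and Ms4a2 on no array. Cma1 was so on 1 of 2 tumor skin arrays and 2 of 3 papilloma arrays. Levels near background limit what the log2 differences of these probes show.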
